A study of Mus musculus with 24 samples.

Results

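The comparison described here sets EMB+ against EMB- cells among the vertebral cells that carried no GFP. Embigin (EMB), encoded by Emb, is a surface glycoprotein of the immunoglobulin family and a known partner of monocarboxylate transporters. The genes described are all protein-coding genes that reached 1 FPKM in 4 or more of the 8 libraries compared, 10835 of 21948 genes. FPKM counts fragments per kilobase of a transcript, relative to all fragments mapped in the library. Of the 10835 genes, 9372 were at 1 FPKM or more in all 8 libraries. Another 333 were at that level in all 4 libraries of one group and in none of the other, 159 of them in the EMB- group, so for these genes the filter itself required a difference. Just inside the limit, 479 genes reached 1 FPKM in exactly 4 libraries, with a median of their mean levels of 1.19 FPKM. Just outside, 292 genes reached it in exactly 3 libraries, with a median of 0.92 FPKM.

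The EMB+ and EMB- groups each held 4 libraries of primary cells sorted from the spine of male mice labelled WT, on postnatal day 10. Both groups were sorted as negative for GFP, CD31, TER119, CD45, Thy, 6C3 and CD105 and as positive for CD200, so they shared all sort markers but EMB. GFP was driven through a Cre linked to Zic1, a transcription factor gene of the dorsal body axis, and GFP- cells are those in which this Cre left no GFP. Used beside them are EMB+ and EMB- cells of the same sort, age and sex from vertebrae with GFP, and from femur and tibia (long bone) without GFP, at 4 libraries a group and 24 in all. The titles describe biological replicates, but no label ties a replicate to an animal, and the p-values cover only the spread between these libraries. All 4 long bone EMB+ titles give the same replicate number, so the titles do not number these libraries apart.

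All 4 EMB+ libraries have a title that disagrees with their cell type label, both on EMB and on GFP. Here the label decided their group. Emb (chromosome 13, 117220625 to 117274098, GRCm38) stood at 51.05, 47.4, 55.3 and 44.4 FPKM in the EMB+ libraries, against 0.918, 0.855, 1.02 and 1.32 FPKM in the EMB- libraries. Every EMB+ library was above every EMB- library (log2 change 4.64, SE 0.12, adjusted p = 5.7e-20). Zic1 reached at most 0.108 FPKM in these EMB+ libraries and 0.0647 FPKM in the EMB- libraries, against at least 1.51 FPKM in vertebral GFP+ EMB+ libraries and 0.349 FPKM in vertebral GFP+ EMB- libraries. RNA of both genes thus followed the cell type labels and not the titles. Ptprc, which encodes CD45, stayed at or below 1.80 FPKM in all 8 libraries and Thy1 at or below 0.0551 FPKM. Cd200 averaged 129.9 ± 8.72 FPKM in EMB+ cells and 97.8 ± 12.2 FPKM in EMB- cells (SD, n = 4 each) and was not called different (adjusted p = 0.11).

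The labelled skeletal cells were rich in cartilage transcripts in both groups. Col2a1, the main collagen of cartilage, alone held 8.12% to 8.79% of the summed FPKM of an EMB+ library and 12.5% to 13.6% of an EMB- library. At this age the vertebral body grows through growth plates. Their resting chondrocytes feed columns of dividing cells that stop dividing, enlarge and mineralise their matrix, the step called hypertrophy. Prehypertrophic cells secrete Indian hedgehog, resting cells release parathyroid hormone-related peptide (Pthlh), and its receptor Pth1r lies on the cells that are about to enlarge. Around the disc and the bone lie the tendon-like and fibrous tissues of the annulus, the ligaments and the periosteum.

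The EMB+ and EMB- libraries fell into separate groups, with correlations over genes of 0.979 to 0.986 within a group and 0.887 to 0.912 between groups. In limma on log2(FPKM + 1) with Benjamini-Hochberg adjustment over all 10835 genes, 4719 genes were higher and 1165 lower in EMB+ cells at an adjusted p below 0.05, that is 43.6% and 10.8% of those tested, 54.3% in all. By at least 2-fold, 872 were higher and 533 lower, and by at least 4-fold 318 differed, of which 142 were lower. The 4 EMB+ and 4 EMB- values did not overlap for 5802 genes, 53.5% of those tested. Log2 changes are given throughout as EMB+ minus EMB- of log2(FPKM + 1), a scale that shrinks the changes of genes near 0 FPKM.

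The balance between higher and lower genes depended on how the libraries were scaled. The top 10 genes by level took 19.2% to 20.3% of all FPKM in EMB+ libraries and 27.7% to 28.4% in EMB- libraries, and the median log2 change over all genes was 0.32. Of the calls, 80.2% were higher and 19.8% lower. Scaling each library by the median ratio of its genes moved a gene's change by a median of 0.36 and left a median of -0.03 over all genes. It gave 1705 higher and 2198 lower genes (15.7% and 20.3% of those tested), or 43.7% and 56.3% of the calls. Quantile normalization gave 54.05% higher and 45.95% lower. No gene was called in opposite directions with and without median-ratio scaling, 2870 genes were called in the same direction in both, and 1389 of the 1405 genes called at 2-fold or more kept their direction and call. A gene said below to rise or fall kept its direction and its call after median-ratio scaling unless the text says otherwise.

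**Figure D1:**
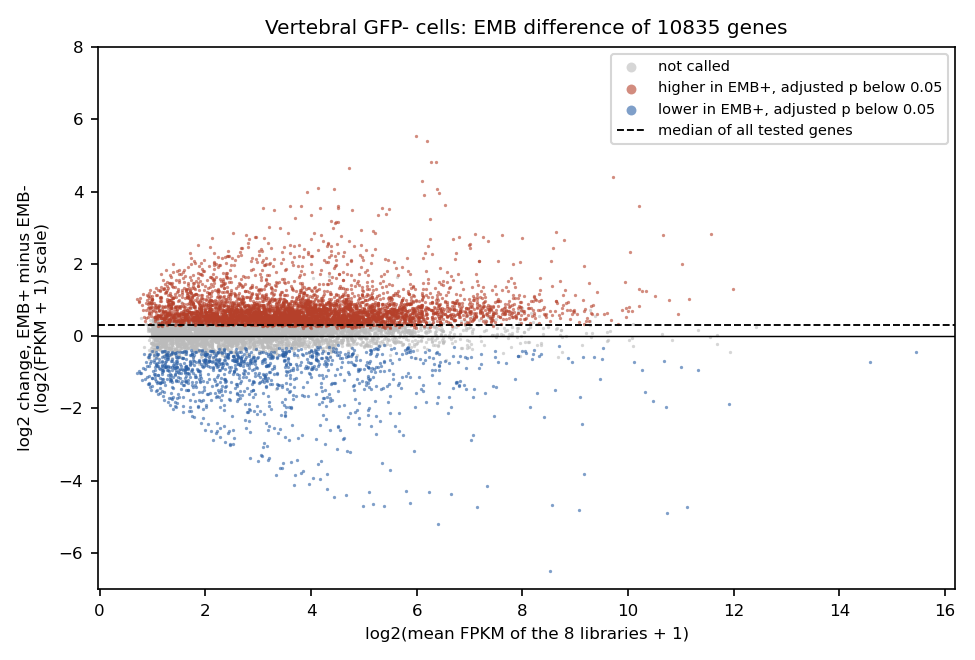
Log2 change of each of the 10835 genes, EMB+ minus EMB- (vertical axis, log2(FPKM + 1) scale), against the mean level of the 8 libraries (horizontal axis). Red points are higher and blue points lower in EMB+ cells at an adjusted p below 0.05, and the dashed line, the median of all genes, lies at 0.32, above 0.

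Among the genes with the largest rises were the markers of prehypertrophic and hypertrophic chondrocytes. Arsi, an arylsulfatase family member, had 157, 102, 122 and 114 FPKM in EMB+ cells, against 2.01, 1.47, 1.73 and 1.41 FPKM in EMB- cells, Col10a1, the collagen of hypertrophic cartilage, rose by 5.41 and Ihh by 4.83. The 15 named genes with the largest rise also held Wnt11 (4.81), a secreted Wnt, Ppa1 (4.41), which hydrolyses inorganic pyrophosphate, and Panx3 (4.29), a membrane channel of hypertrophic chondrocytes and osteoblasts. They further held Moxd1 (4.10), Fxyd2 (4.08), a regulator of the sodium pump, Prkg2 (4.06), a cGMP-dependent kinase of the growth plate, Bmp7 (3.98), Mmp13 (3.95), Gdf10 (3.64) and R3hdml (3.61). Ppa1 was the most abundant of them, with 1594 ± 153 FPKM in EMB+ cells and 75.4 ± 17.2 FPKM in EMB- cells (SD, n = 4 each). Emb itself and Mpo, a neutrophil enzyme taken up further on, complete the list.

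The largest falls were led by genes of red blood cells. Slc4a1, Hba-a1, Hbb-bt, Car2, Hbb-bs, Hba-a2, Alas2, Klf1 and the protease gene Ctse had log2 changes between -5.21 and -4.46, and the plot by library shows their levels. Among the other 5 of the 14 genes shown was Sbsn, suprabasin, which had 1.53, 1.39, 1.35 and 2.95 FPKM in EMB+ cells, against 55.3, 70.6, 70.6 and 75.7 FPKM in EMB- cells. Cilp, a matrix protein of cartilage and tendon (-4.36), Padi2, a peptidylarginine deiminase (-4.32), the tetraspanin gene Tspan33 (-4.39) and the imprinted gene Nnat (-4.33) were the others. No EMB+ library overlapped an EMB- library for any of these 29 genes, as the naming rule required, and all 29 kept their call after median-ratio scaling. The predicted gene 1520401A03Rik, which the rule leaves out and which was singled out after its values were seen, averaged 7.58 FPKM in EMB+ cells and 729 FPKM in EMB- cells, a log2 change of -6.51.

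**Figure D2:**
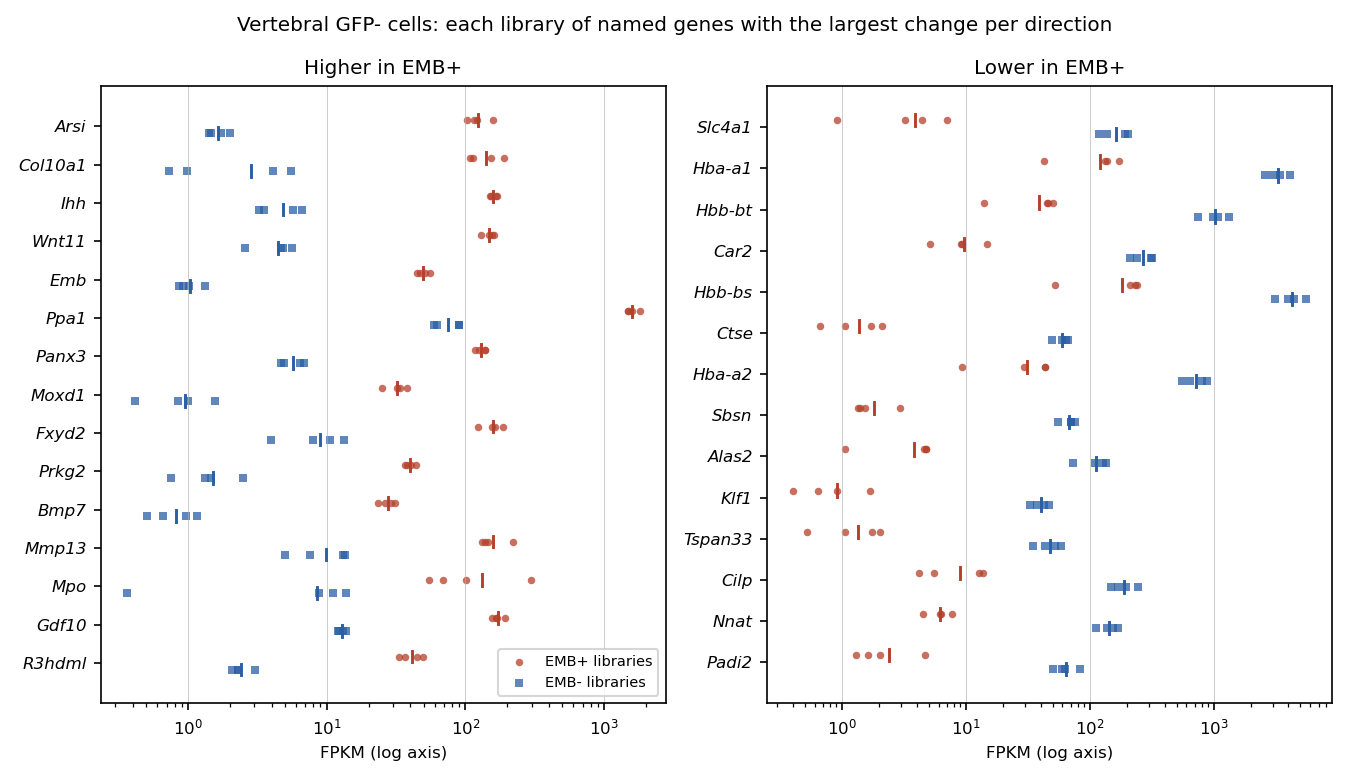
FPKM (log axis) of each library for the 15 named genes with the largest rise (left) and 14 with the largest fall (right), with EMB+ libraries as circles above EMB- libraries as squares and the mean as a bar. The 4 EMB+ values lie on 1 side of the 4 EMB- values in each row; Mpo ranges from 0.362 to 13.8 FPKM in EMB- libraries.

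Genes of prehypertrophic and hypertrophic chondrocytes rose in EMB+ cells, with a pair of exceptions among their secreted factors. Of 11 prehypertrophic and hypertrophic genes tested, 8 rose and 2 fell, beside 43.6% and 10.8% of all genes. Their median log2 change was 2.88, against 0.32 over all genes. Runx3, a transcription factor that drives hypertrophy together with Runx2, had 22.2, 23.1, 19.7 and 20.4 FPKM in EMB+ cells, against 1.33, 0.665, 0.928 and 0.558 FPKM in EMB- cells (log2 change 3.59, SE 0.14, adjusted p = 1.9e-16). Mef2c, another transcription factor of hypertrophy, averaged 113 ± 4.42 FPKM in EMB+ cells and 24.7 ± 2.23 FPKM in EMB- cells (SD, n = 4 each) and rose by 2.15. Pth1r (chromosome 9, 110722085 to 110747145), the receptor of parathyroid hormone-related peptide, had 723, 731, 654 and 686 FPKM in EMB+ cells, against 108, 89.04, 88.8 and 90.8 FPKM in EMB- cells (log2 change 2.88, SE 0.11, adjusted p = 4.4e-16). Its ligand gene Pthlh went the other way and averaged 9.26 ± 1.04 FPKM in EMB+ cells and 19.9 ± 1.68 FPKM in EMB- cells, a log2 change of -1.02. The 2 members that fell were Vegfa, the angiogenic factor of hypertrophic cartilage (-1.08), and Bmp6 (-1.43). Scin, an actin-severing protein, rose by 0.65, a call that was lost after median-ratio scaling (0.25).

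In the hedgehog pathway the ligand and the receptor rose and most of the co-receptors fell. Ihh (chromosome 1, 74945315 to 74951672) had 165.5, 152, 168.4 and 151 FPKM in the EMB+ libraries, against 5.72, 3.55, 6.67 and 3.27 FPKM in the EMB- libraries (log2 change 4.83, SE 0.20, adjusted p = 1.3e-15). No EMB- library exceeded 6.67 FPKM and no EMB+ library was below 150.7 FPKM. Disp1, which releases hedgehog ligands from the cells that make them, rose by 1.38. Ptch1, the receptor and itself a target gene of the pathway, had 37.9, 40.4, 39.96 and 37.8 FPKM in EMB+ cells, against 8.43, 7.48, 7.62 and 7.14 FPKM in EMB- cells (log2 change 2.21, SE 0.18, adjusted p = 2.6e-10). Gas1 (chromosome 13, 60174405 to 60177365), a co-receptor, was lower in each EMB+ library than in any EMB- library, with 47.6, 69.7, 85.8 and 105 FPKM in EMB+ cells, against 1033, 1209, 1015 and 1016 FPKM in EMB- cells (log2 change -3.83, SE 0.18, adjusted p = 1.2e-14). The co-receptor genes Cdon (-1.53) and Boc (-0.94), the signal transducer Smo (-0.75) and the transcription factor Gli2 (-0.88) fell as well. Gli1, often used as a readout of the pathway, averaged 5.26 ± 0.433 FPKM in EMB+ cells and 3.27 ± 0.927 FPKM in EMB- cells (SD, n = 4 each), and its call was lost after median-ratio scaling (0.57 as deposited, 0.24 scaled). Gli3, Sufu and the decoy receptor Hhip were not called as deposited. In all, 4 of 12 hedgehog genes tested rose and 5 fell as deposited, with a median of -0.0023. After median-ratio scaling 3 rose and 6 fell. Of all genes tested, 43.6% rose and 10.8% fell as deposited, and 15.7% and 20.3% once scaled. Shh and Dhh did not pass the filter on low values.

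Resting zone genes fell. Of 10 tested, 9 fell and 1 rose, beside 10.8% and 43.6% of all genes, with a median of -1.32. Once scaled by the median ratio 9 fell, beside 20.3% of all genes. Clu, a secreted chaperone, had 89.6, 122, 138 and 132 FPKM in EMB+ cells, against 532, 595, 579 and 535 FPKM in EMB- cells (log2 change -2.23, SE 0.14, adjusted p = 3.5e-12). Barx1, a homeobox gene of joint and articular cartilage, averaged 13.3 ± 5.35 FPKM in EMB+ cells and 90.9 ± 14.7 FPKM in EMB- cells (SD, n = 4 each) and fell by 2.75 on the log2 scale. The secreted Wnt inhibitors Sfrp5 (-1.47), Wif1 (-1.18) and Dkk3 (-0.51), the lubricin gene Prg4 (-1.95), Spon1 (-0.80), Gas1 and Pthlh made up the rest of the fall. Ucma was the exception, with 1169 ± 77.1 FPKM in EMB+ cells and 708 ± 28.9 FPKM in EMB- cells, and its rise of 0.72 lost its call after median-ratio scaling.

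Cartilage matrix genes mostly rose in EMB+ cells, against a fall in the most abundant of them. Of 22 cartilage genes tested, 16 rose and 2 fell as deposited, beside 43.6% and 10.8% of all genes. Once scaled by the median ratio 13 rose and 3 fell, beside 15.7% and 20.3% of all genes. Matrilin-3 (Matn3), which links collagen fibrils, had 2213, 2389.6, 2132 and 1985 FPKM in EMB+ cells, against 245, 177.3, 173.1 and 136 FPKM in EMB- cells (log2 change 3.60, SE 0.21, adjusted p = 4.7e-13). Matn1 (2.78), Matn4 (2.06), Col9a3 (2.01), the fibroblast growth factor receptor gene Fgfr3 (1.72), Comp (1.29), Col11a1 (1.30), Hapln1 (1.27) and Acan (0.96) rose as well. Col2a1 averaged 37950.3 ± 782 FPKM in EMB+ cells and 51961 ± 2329 FPKM in EMB- cells (SD, n = 4 each) and fell by 0.45 on the log2 scale, and quantile normalization left no difference (log2 change -0.45, SE 0.13, adjusted p = 0.005 as deposited). The cytokine-like gene Cytl1 fell by 1.95 on the log2 scale. Sox9, the master transcription factor of chondrocytes, averaged 521 ± 36.9 FPKM in EMB+ cells and 337 ± 31.6 FPKM in EMB- cells, and its rise of 0.63 was lost after median-ratio scaling. Its partners Sox5 and Sox6 were not called. Lect1, chondromodulin, did not differ as deposited (0.03) and was called lower after median-ratio scaling (-0.38). Of the 10 most abundant genes, Mgp, an inhibitor of mineralisation, rose the most, with 5682, 3701, 5923 and 5935 FPKM in EMB+ cells, against 583, 558, 922 and 953 FPKM in EMB- cells (log2 change 2.83, SE 0.30, adjusted p = 3.1e-08). Clec3a, a C-type lectin of cartilage, fell by 1.88 on the log2 scale.

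Most listed enzymes that build the sugar chains of cartilage proteoglycans rose with the matrix genes as deposited, while sulfotransferase genes went both ways. Of 24 glycosaminoglycan synthesis genes tested, 17 rose and 2 fell as deposited, beside 43.6% and 10.8% of all genes. After median-ratio scaling 11 rose and 2 fell, beside 15.7% and 20.3% of all genes. Ugdh, which makes the UDP-glucuronic acid of these chains, had 177.8, 174.8, 161.3 and 165.9 FPKM in EMB+ cells, against 46.1, 39.5, 33.97 and 33.4 FPKM in EMB- cells (log2 change 2.13, SE 0.12, adjusted p = 4.3e-13). The sulfate transporter gene Slc26a2 averaged 135 ± 10.2 FPKM in EMB+ cells and 35.8 ± 1.65 FPKM in EMB- cells (SD, n = 4 each). Csgalnact1 (1.54), which starts chondroitin sulfate chains, Ext2 (1.34), which lengthens heparan sulfate, and B4galt7 (1.14), which builds the linker, also rose. The members that fell were the sulfotransferase gene Chst3 (-2.31) and Csgalnact2 (-0.91). Outside the list, the sulfotransferase genes Chst5 (-4.29), Chst7 (-1.16) and Chst1 (-0.97) fell too. Called higher as deposited were Chst15 (2.72), Chst13 (1.76), Chst11 (0.91), Chst12 (0.89), Chst14 (0.72) and Chst2 (0.53).

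**Figure D3:**
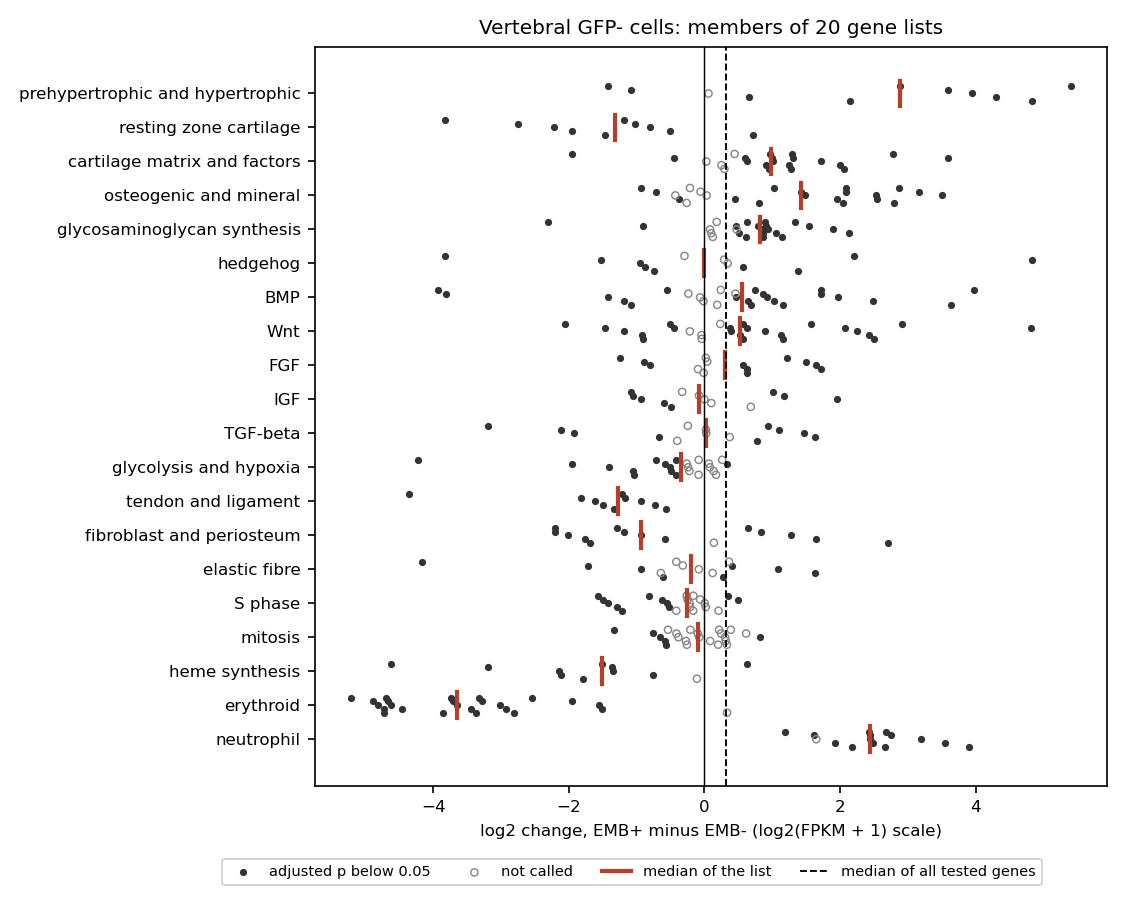
Log2 change of each tested member of 20 gene lists, EMB+ minus EMB- (horizontal axis, log2(FPKM + 1) scale). Filled points have an adjusted p below 0.05, red bars are list medians and the dashed line is the median of all genes, 0.32; the hypertrophic median lies at 2.88 and the erythroid median at -3.65.

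Osteoblast and mineralisation genes rose, apart from the most abundant matrix transcripts of bone. Of 23 tested, 15 rose and 3 fell, beside 43.6% and 10.8% of all genes, with a median of 1.43. Once scaled by the median ratio 13 rose and 5 fell, beside 15.7% and 20.3% of all genes. Runx2, the transcription factor at the head of osteoblast differentiation, had 39.7, 34.3, 44.5 and 36.4 FPKM in EMB+ cells, against 4.16, 3.18, 3.85 and 2.57 FPKM in EMB- cells (log2 change 3.17, SE 0.17, adjusted p = 1.1e-13). Dlx5 (3.51), a homeobox gene upstream of it in bone, and Sp7 (2.86), osterix, rose with it. Spp1, osteopontin, had 2668, 2512, 3384 and 2689.6 FPKM in EMB+ cells, against 455, 479, 413 and 294 FPKM in EMB- cells (log2 change 2.79, SE 0.20, adjusted p = 2e-11). Phospho1 (2.55) and Smpd3 (2.05), which supply phosphate and lipid products for the first mineral, rose, as did Ifitm5 (2.53) and Phex (1.43). Bglap and Bglap2, osteocalcin, each rose by 2.09, but the genes are near-identical copies and their separate levels are uncertain. Sparc, osteonectin, averaged 18576 ± 435 FPKM in EMB+ cells and 30604 ± 672 FPKM in EMB- cells (SD, n = 4 each) and fell by 0.72 on the log2 scale, and quantile normalization left no difference. Col1a1 and Col1a2 were not called as deposited (adjusted p = 0.42 and 0.075) and were called lower after median-ratio scaling (-0.63 and -0.84). Ank, a pyrophosphate exporter that keeps mineral from forming, fell by 0.94 on the log2 scale.

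RUNX factors bind the core TGTGGT, and the promoter windows of the genes tested were searched for these letters. The window was the 250 bases before each RefSeq start, in the RefSeq table of build GRCm38.p6, and both strands were searched, that is TGTGGT or ACCACA, which cannot overlap each other. Of the 10835 genes tested, 8412 had a window. The core stood in 12.8% of these (1075 genes), in 7 of the 15 osteogenic genes with a window (46.7%) and in 2 of the 10 hypertrophic genes (20%). The windows of a matrix protease and of a mineral-binding protein that both rose are shown, with the core in capitals, on the plus strand at chr9:7272264-7272513 for Mmp13 and at chr5:104434861-104435110 for Spp1. The RefSeq start is the deposited start for Mmp13 and lies 7 bases before it for Spp1. A match is a run of letters and says nothing about binding.
Mmp13: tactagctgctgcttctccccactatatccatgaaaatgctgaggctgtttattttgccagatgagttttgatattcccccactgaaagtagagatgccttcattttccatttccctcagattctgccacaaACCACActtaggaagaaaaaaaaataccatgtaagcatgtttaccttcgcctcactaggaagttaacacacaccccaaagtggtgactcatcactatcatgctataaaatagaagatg
Spp1: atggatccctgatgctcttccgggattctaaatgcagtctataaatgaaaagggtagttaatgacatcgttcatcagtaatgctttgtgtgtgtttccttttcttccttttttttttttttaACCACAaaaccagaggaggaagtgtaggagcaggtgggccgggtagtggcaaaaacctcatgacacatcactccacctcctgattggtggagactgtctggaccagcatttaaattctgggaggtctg

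Wnt ligands and their nuclear factors rose while secreted inhibitors were split. Wnt11 (chromosome 7, 98835112 to 98855195) had 161.01, 156, 147 and 129 FPKM in the EMB+ libraries, against 4.84, 4.67, 5.66 and 2.59 FPKM in the EMB- libraries (log2 change 4.81, SE 0.24, adjusted p = 4e-14). Wnt5b (2.91), Wnt5a (2.24) and Wnt4 (2.07), ligands of the growth plate, rose, and so did the transcription factor genes Lef1 (2.496) and Tcf7 (2.42) and the feedback inhibitor Nkd1 (1.57). Lef1 averaged 20.9 ± 3.09 FPKM in EMB+ cells and 2.87 ± 0.452 FPKM in EMB- cells (SD, n = 4 each). Of the receptors, Fzd8 fell, with 11.7, 14.2, 10.8 and 11.7 FPKM in EMB+ cells, against 59.7, 56.9, 42.2 and 55.1 FPKM in EMB- cells (log2 change -2.05, SE 0.14, adjusted p = 8.5e-12), while Fzd1 rose by 0.89. Among the inhibitors Sfrp1 rose by 1.13, and Sfrp5, Wif1, Dkk3 and Dkk1 (-0.92) fell. Notum, an extracellular deacylase of Wnts, was called higher as deposited (0.40) and at -0.01, not called, after median-ratio scaling. Over the list of 27 genes tested, 16 rose and 7 fell as deposited, beside 43.6% and 10.8% of all genes. Once scaled by the median ratio 9 rose and 8 fell, beside 15.7% and 20.3% of all genes.

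Bone morphogenetic protein (BMP) ligands went in both directions, and so did their antagonists. Bmp7 (chromosome 2, 172868012 to 172940321) had 29.04, 26.5, 30.9 and 23.6 FPKM in the EMB+ libraries, against 0.659, 0.961, 1.16 and 0.506 FPKM in the EMB- libraries (log2 change 3.98, SE 0.16, adjusted p = 8.7e-16). Gdf10, a member of the BMP3 group, had 168.9, 194, 166.2 and 155 FPKM in EMB+ cells, against 13.7, 12.2, 13.2 and 12.04 FPKM in EMB- cells (log2 change 3.64, SE 0.17, adjusted p = 9.6e-15), and Bmp5 (1.96), Bmp8a (1.71) and Bmp2 (0.87) also rose. Bmp3 (-1.08), Bmp6 (-1.43) and Gdf6 (-1.19) fell. Grem1 (chromosome 2, 113746164 to 113758646), gremlin 1, a secreted antagonist of BMPs, had 1.12, 1.02, 0.815 and 1.13 FPKM in the EMB+ libraries, against 32.9, 29.2, 31.9 and 25.03 FPKM in the EMB- libraries (log2 change -3.92, SE 0.25, adjusted p = 2.3e-12). Chrdl2, a chordin-like antagonist, had 1.504, 1.904, 1.17 and 1.98 FPKM in EMB+ cells, against 39.2, 32.7, 36.6 and 34.7 FPKM in EMB- cells (log2 change -3.81, SE 0.17, adjusted p = 5.2e-15). Its relative Chrdl1 (2.49) and the antagonist Nog (1.02) rose instead. Of the target genes, Smad7 (1.72), Id3 (1.16) and Id1 (0.93) rose, while Id2 and Id4 were not called as deposited and were called lower after median-ratio scaling (-0.65 and -0.46). In all 14 of 26 genes tested rose and 6 fell, beside 43.6% and 10.8% of all genes. After median-ratio scaling the counts were 11 and 8, beside 15.7% and 20.3% of all genes.

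Of 14 genes of the transforming growth factor beta (TGF-beta) and activin list tested, 5 rose and 4 fell, beside 43.6% and 10.8% of all genes. Once scaled by the median ratio 4 rose and 7 fell, beside 15.7% and 20.3% of all genes. Inhba, a subunit of activin A, had 4.06, 4.14, 5.38 and 2.83 FPKM in EMB+ cells, against 43.3, 42, 44.2 and 50.4 FPKM in EMB- cells (log2 change -3.19, SE 0.26, adjusted p = 3.4e-10). The latent TGF-beta binding protein genes Ltbp1 (-1.92) and Ltbp3 (-0.67) fell, and Ltbp2 rose by 1.63. Tgfb1 (1.09) and Tgfb2 (1.46) rose, and Tgfb3 was not called as deposited. The fibroblast growth factor list had 7 of 14 tested genes higher and 3 lower as deposited, with 3 and 6 after median-ratio scaling. The insulin-like growth factor list had 3 of 13 higher and 5 lower as deposited, with 3 and 6 after scaling. In the fibroblast growth factor list, Fgfr3 had 178.8, 180.5, 160.6 and 152 FPKM in EMB+ cells, against 60.6, 45.95, 46.95 and 48.4 FPKM in EMB- cells, Fgfr2 fell by 0.81 and the ligand gene Fgf18 by 0.90 on the log2 scale, and Fgfr1 was not called (0.02). Among insulin-like growth factor genes, Igf2 had 809.7, 1001, 1002 and 816 FPKM in EMB+ cells, against 229, 254, 252 and 201 FPKM in EMB- cells (log2 change 1.95, SE 0.24, adjusted p = 3.1e-07), Igf1 was not called (-0.08), and the binding protein gene Igfbp7 fell by 0.94 on the log2 scale. Of signals to other cells, Tnfsf11, RANKL, the inducer of osteoclasts, averaged 4.43 ± 0.409 FPKM in EMB+ cells and 0.217 ± 0.0508 FPKM in EMB- cells (SD, n = 4 each), and the chemokine gene Cxcl12 rose by 2.24. Osteoclast and niche factors as a list did not stand out, with 3 of 7 tested higher and 0 lower as deposited and a median of 0.23. After median-ratio scaling 2 of the 7 were higher and 1 lower.

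Elastin and the tendon genes fell in EMB+ cells, while other elastic fibre and fibroblast genes went both ways. Eln (chromosome 5, 134702593 to 134747323), elastin, had 10.9, 11.3, 18.99 and 27.4 FPKM in the EMB+ libraries, against 281, 342, 303 and 287 FPKM in the EMB- libraries (log2 change -4.16, SE 0.23, adjusted p = 1.7e-13). The groups did not overlap, and the highest EMB+ library, replicate 4, stood well under the lowest EMB- library. Fbn1, fibrillin-1, fell by 1.72 and Mfap2 by 0.61 on the log2 scale, while Emilin1 rose by 1.08. The elastic fibre list as a whole had 4 of 14 higher and 4 lower as deposited, beside 43.6% and 10.8% of all genes. After median-ratio scaling 2 were higher and 8 lower, beside 15.7% and 20.3% of all genes. As deposited, the count of higher members was 2 without EMB+ replicate 2, EMB+ replicate 3, EMB- replicate 2 or EMB- replicate 4.

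Of 10 tendon and ligament genes, all 10 fell, beside 10.8% of all genes, with a median of -1.27. All 10 fell once scaled by the median ratio, beside 20.3% of all genes. Scx, the transcription factor of tendon progenitors, had 3.4, 4.84, 6.95 and 5.98 FPKM in EMB+ cells, against 18.2, 18.2, 17.8 and 17.5 FPKM in EMB- cells (log2 change -1.62, SE 0.23, adjusted p = 3.2e-06). Tnmd, tenomodulin, averaged 18.7 ± 4.65 FPKM in EMB+ cells and 67.3 ± 6.41 FPKM in EMB- cells (SD, n = 4 each). Cilp, the member with the largest fall, had 4.15, 5.55, 12.7 and 13.7 FPKM in EMB+ cells, against 195, 246, 147 and 167.2 FPKM in EMB- cells. Of 15 fibroblast and periosteum genes tested, 9 fell and 5 rose as deposited, beside 10.8% and 43.6% of all genes. After median-ratio scaling 9 fell and 3 rose, beside 20.3% and 15.7% of all genes. Those that fell included Col3a1 (-1.69), Ly6a (-2.01), the stem cell antigen Sca-1, and Postn (-1.19), and those that rose included Prrx1 (1.64) and Tnc (1.28).

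The small leucine-rich proteoglycans, which bind collagen fibrils, followed the same split. Ogn (-2.21), Aspn (-2.21), Ecm2 (-1.68), Fmod (-0.94), Bgn (-0.70) and Dcn (-0.57) fell. Lum, lumican, went the other way, with 409, 444, 483 and 417 FPKM in EMB+ cells, against 77.5, 68.6, 62.3 and 58.3 FPKM in EMB- cells (log2 change 2.70, SE 0.16, adjusted p = 4.8e-13). Of 15 tested, 8 fell and 4 rose as deposited, beside 10.8% and 43.6% of all genes. After median-ratio scaling 9 fell and 2 rose, beside 20.3% and 15.7% of all genes.

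Among the 33 collagen chain genes tested, 13 rose and 13 fell as deposited, beside 43.6% and 10.8% of all genes. Once scaled by the median ratio 12 rose and 17 fell, beside 15.7% and 20.3% of all genes. Col10a1 (chromosome 10, 34389981 to 34397085) had 154, 113, 190.5 and 109 FPKM in the EMB+ libraries, against 4.11, 0.735, 5.53 and 0.987 FPKM in the EMB- libraries, and no value of the groups overlapped. Col12a1, which decorates fibrils, averaged 279.6 ± 41.01 FPKM in EMB+ cells and 44.4 ± 8.81 FPKM in EMB- cells (SD, n = 4 each) and rose by 2.64, and the cartilage collagen gene Col27a1 rose by 2.27. Of the network-forming and basement membrane chains tested other than Col10a1, which rose, Col4a1 (-1.65), Col4a2 (-2.35), Col4a5 (-1.499), Col4a6 (-0.88), Col15a1 (-2.60) and Col8a1 (-2.26) fell. Col18a1 (0.42) and Col8a2 (0.11) were not called. The fibrillar chains of fibrous tissue Col3a1, Col5a1 (-1.29) and Col5a2 (-1.37) fell too. Among the matrix proteases, Mmp13, the collagenase of hypertrophic cartilage and bone, had 132, 144, 222 and 138 FPKM in EMB+ cells, against 13.1, 7.53, 13.6 and 5.001 FPKM in EMB- cells (log2 change 3.95, SE 0.26, adjusted p = 5.4e-12). Timp1, a protease inhibitor (2.69), Adamts3 (1.998), which trims procollagen II, Mmp2 (1.15) and Mmp14 (0.84) rose, and Adamts17 (-2.78) and Mmp3 (-1.56) fell. Of 20 protease and inhibitor genes tested, 12 rose and 3 fell as deposited, beside 43.6% and 10.8% of all genes. After median-ratio scaling 9 rose and 4 fell, beside 15.7% and 20.3% of all genes.

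Several genes that respond to low oxygen fell in EMB+ cells. Car9 (chromosome 4, 43506966 to 43513729), a carbonic anhydrase widely used as a marker of hypoxia, had 0.577, 1.503, 0.9304 and 1.04 FPKM in the EMB+ libraries, against 31.4, 38.3, 34.4 and 41.1 FPKM in the EMB- libraries (log2 change -4.22, SE 0.21, adjusted p = 2e-14). Every EMB+ library was at 1.503 FPKM or below, and no EMB- library was below 31.4 FPKM. Pfkp, a platelet-type phosphofructokinase, had 23.9, 25.5, 23.5 and 24.98 FPKM in EMB+ cells, against 106, 103, 86.2 and 96.4 FPKM in EMB- cells (log2 change -1.95, SE 0.13, adjusted p = 7.2e-12). Bnip3 (-1.41), a mitophagy receptor, the glucose transporter gene Slc2a1 (-1.05), the oxygen sensor Egln3 (-1.04) and the pyruvate kinase gene Pkm (-0.71) fell. Ldha (0.08) and Pgk1 (-0.09) were not called as deposited and were called lower after median-ratio scaling (-0.33 and -0.49), and Gapdh was called in neither (0.17 and -0.24). Of 22 genes tested, 11 fell and 1 rose, Eno1 (0.34, -0.08 and not called after median-ratio scaling), with a median of -0.34. As deposited 10.8% of all genes fell and 43.6% rose. After median-ratio scaling 18 of the 22 fell and 0 rose, beside 20.3% and 15.7% of all genes.

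Embigin's known partners are lactate and pyruvate carriers, and these were examined with it. Slc16a3, which exports lactate from glycolytic cells, had 41.5, 29.8, 32.8 and 35.6 FPKM in EMB+ cells, against 115, 108, 89.3 and 94.5 FPKM in EMB- cells (log2 change -1.52, SE 0.19, adjusted p = 4.1e-07). Basigin (Bsg), the other partner of these carriers, averaged 364 ± 21.3 FPKM in EMB+ cells and 559.8 ± 28.6 FPKM in EMB- cells (SD, n = 4 each) and fell by 0.62 on the log2 scale. Slc16a1 was not called (adjusted p = 0.066). Neuroplastin (Nptn), the remaining member of the embigin and basigin family, was called higher as deposited (0.36), with a change of -0.05 and no call after median-ratio scaling. Slc16a7 did not pass the filter on low values.

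The core of the hypoxia response element, ACGTG or on the other strand CACGT, stood in the 250 bases before a RefSeq start of 12 of the 21 glycolysis and hypoxia genes with a window (57.1%), against 26% of the 8412 genes tested that have a window (2191 genes). Both cores overlap where the letters CACGTG occur. The holders included members that fell, such as Car9, Bnip3, Slc2a1, Pkm and Egln3. They also included members that were not called as deposited, such as Ldha, Pgk1, Pfkm, Hk2 and Pgam1, of which Ldha and Pgk1 were called lower after median-ratio scaling. The windows of the marker with the largest fall and of the carriers of glucose and lactate are shown, from the RefSeq table of build GRCm38.p6, on the plus strand, at chr4:43506776-43507025 for Car9, chr4:119108495-119108744 for Slc2a1 and chr11:120948817-120949066 for Slc16a3. The RefSeq start lies 60 bases past the deposited gene start for Car9, 34 for Slc2a1 and 587 for Slc16a3, so the end of the first and second windows and all of the third lie within the deposited gene interval. Capitals mark the core, which occurs once in the first and second and at 2 places in the third.
Car9: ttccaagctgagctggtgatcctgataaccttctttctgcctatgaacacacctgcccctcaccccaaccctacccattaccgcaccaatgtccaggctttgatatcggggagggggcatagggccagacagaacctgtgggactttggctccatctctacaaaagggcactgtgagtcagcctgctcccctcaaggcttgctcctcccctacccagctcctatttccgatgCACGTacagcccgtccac
Slc2a1: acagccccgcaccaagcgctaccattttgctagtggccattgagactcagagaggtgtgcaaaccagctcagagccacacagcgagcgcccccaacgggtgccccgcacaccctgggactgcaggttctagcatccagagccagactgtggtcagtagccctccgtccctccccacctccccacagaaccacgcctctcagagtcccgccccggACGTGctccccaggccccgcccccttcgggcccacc
Slc16a3: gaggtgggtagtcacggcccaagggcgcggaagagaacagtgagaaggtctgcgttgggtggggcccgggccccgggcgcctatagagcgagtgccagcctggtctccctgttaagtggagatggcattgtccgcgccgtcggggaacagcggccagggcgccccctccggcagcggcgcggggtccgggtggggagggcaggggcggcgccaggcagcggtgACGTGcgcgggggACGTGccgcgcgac

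Transcripts of red blood cell precursors were present in EMB- cells and low in EMB+ cells, although both groups were sorted as TER119- and CD45-. The 26 erythroid genes together made up 0.0545%, 0.148%, 0.121% and 0.124% of the summed FPKM in the EMB+ libraries, against 1.98%, 2.72%, 3.25% and 2.42% in the EMB- libraries. This was a mean of 0.112% ± 0.0400 in EMB+ libraries and 2.59% ± 0.536 in EMB- libraries (SD, n = 4 each), with a two-sided exact permutation p of 0.0286, the smallest that 4 against 4 allow, and 0.0457 after adjustment over 8 marker sums. With the libraries paired by replicate number the exact p was 0.125, the smallest that 4 pairs allow, so no marker sum can be called in that design. Of 25 tested, 24 fell, beside 10.8% of all genes, and the transferrin receptor gene Tfrc (0.33) was not called. Klf1, the transcription factor of red cell differentiation, had 0.636, 1.68, 0.906 and 0.402 FPKM in EMB+ cells, against 32.7, 47.1, 42.97 and 37.6 FPKM in EMB- cells (log2 change -4.46, SE 0.25, adjusted p = 1.8e-13). Gata1, the other master factor, averaged 0.466 ± 0.333 FPKM in EMB+ cells and 9.24 ± 1.93 FPKM in EMB- cells (SD, n = 4 each), and the antigen carrier gene Rhd fell by 3.71 on the log2 scale. Car2, a carbonic anhydrase, had 5.08, 14.9, 9.33 and 9.14 FPKM in EMB+ cells, against 210.4, 312, 317 and 239 FPKM in EMB- cells. The alpha globin genes Hba-a1 and Hba-a2 are near-identical copies, as are the beta globin genes Hbb-bs and Hbb-bt, so the split between their members is uncertain. In these sorted bulk samples fewer cells of a type and less RNA per cell cannot be told apart.

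Most enzymes of heme synthesis fell with the erythroid genes. Alas2 (chromosome X, 150547375 to 150570638), the first enzyme of the pathway in red cells, had 1.06, 4.78, 4.72 and 4.61 FPKM in the EMB+ libraries, against 72.97, 127, 135 and 109 FPKM in the EMB- libraries (log2 change -4.62, SE 0.37, adjusted p = 2.4e-10). Its counterpart in other tissues, Alas1, was called higher as deposited (0.63) and not after median-ratio scaling (0.26). Alad (-2.14), Uros (-1.51), Urod (-1.35), Cpox (-1.79), Ppox (-1.36) and Fech (-2.11), enzymes of later steps, all fell. Of 11 genes tested, 9 fell and 1 rose, beside 10.8% and 43.6% of all genes. GATA factors bind the core AGATAA, whose complement reads TTATCT and does not overlap it. This core stood in the window of 7 of 19 erythroid genes (36.8%) and of 1 of 9 heme genes (11.1%), against 6.82% of all genes tested with a window. The window of Alas2, which belongs to both lists and whose RefSeq start lies 42 bases past the deposited one, is shown at chrX:150547167-150547416 on the plus strand with the core in capitals.
Alas2: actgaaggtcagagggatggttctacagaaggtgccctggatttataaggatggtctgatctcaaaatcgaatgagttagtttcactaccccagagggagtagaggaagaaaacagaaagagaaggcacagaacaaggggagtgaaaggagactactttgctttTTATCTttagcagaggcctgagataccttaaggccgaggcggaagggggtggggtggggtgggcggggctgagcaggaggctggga

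Neutrophil genes moved the other way and varied widely between libraries. The 19 genes together made up 0.578%, 0.137%, 0.923% and 0.362% of the summed FPKM in the EMB+ libraries, against 0.0469%, 0.0575%, 0.179% and 0.0643% in the EMB- libraries, and the groups overlapped (exact permutation p = 0.0571, adjusted p = 0.0762). Mpo, myeloperoxidase, had 54.9, 68.3, 298 and 101 FPKM in EMB+ cells, against 0.362, 8.75, 13.8 and 11.2 FPKM in EMB- cells (log2 change 3.90, SE 0.76, adjusted p = 0.00025), and S100a8, a calcium-binding protein of neutrophils, had 934, 186.04, 1388 and 544 FPKM in EMB+ cells, against 64.03, 68.1, 256 and 71.5 FPKM in EMB- cells and its groups overlapped. EMB+ replicate 3 was the highest library for both. Of 15 tested, 14 rose, 15 with the replicate numbers as a block and 10 after median-ratio scaling. The shares of all genes that rose were 43.6% as deposited and 15.7% after median-ratio scaling.

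Other cell types left small sums. Markers of endothelium summed to at most 0.00133% of the FPKM in 7 of the 8 libraries and to 0.00730% in EMB+ replicate 4, where Plvap reached 12.8 FPKM and Pecam1 4.05 FPKM, against at most 0.725 FPKM and 0.624 FPKM elsewhere. Macrophage and osteoclast markers summed to between 0.0106% and 0.0124% in EMB+ libraries and between 0.00660% and 0.00886% in EMB- libraries, with C1qb, Dcstamp and Calcr at or near 0. Acp5, an osteoclast enzyme of that list, went against its sum, with 3.35 ± 0.411 FPKM in EMB+ cells and 9.51 ± 2.37 FPKM in EMB- cells (log2 change -1.25). Skeletal muscle markers summed to between 0.0139% and 0.0177% in EMB+ libraries and between 0.00880% and 0.0117% in EMB- libraries, with Myod1, Myog and Myl1 at or near 0. Schwann and neural markers summed to between 0.0123% and 0.0152% in EMB+ libraries and between 0.0194% and 0.0506% in EMB- libraries. Adipogenic markers summed to between 0.00440% and 0.0108% in EMB+ libraries and between 0.00322% and 0.00352% in EMB- libraries. These 4 sums did not overlap between the groups (each exact permutation p = 0.0286, adjusted p = 0.0457, and 0.125 when paired), and B lineage and MHC class II markers gave an adjusted p of 0.098. The part of these cell types in the other results was not tested.

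**Figure D4:**
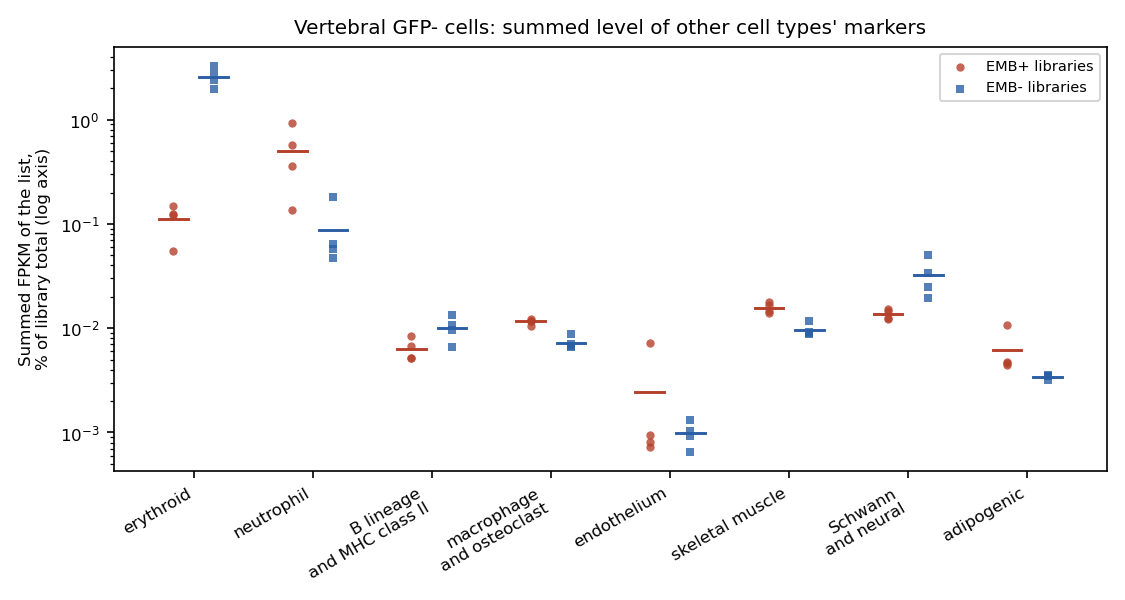
Summed FPKM of 8 lists of other cell types' markers as a percent of the library total (log axis), 1 point per library, EMB+ circles left of EMB- squares, bars for means. The erythroid sum lies at or below 0.148% in EMB+ libraries and at or above 1.98% in EMB- libraries, and only EMB+ replicate 4 has an endothelial sum above 0.00133%.

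Part of the cell cycle genes were lower in EMB+ cells as deposited, and more of them after median-ratio scaling. Of 22 S phase genes tested, 9 fell and 2 rose as deposited, and 14 fell and 0 rose after median-ratio scaling. Of all genes tested, 10.8% fell as deposited and 20.3% after median-ratio scaling. Rrm2, a subunit of the enzyme that makes deoxyribonucleotides, had 28.6, 27.8, 38.6 and 27.9 FPKM in EMB+ cells, against 83.5, 121, 99.2 and 73.2 FPKM in EMB- cells (log2 change -1.57, SE 0.25, adjusted p = 1.4e-05), and the replication helicase subunit Mcm6 fell by 1.29 on the log2 scale. Of 23 mitosis genes, 5 fell and 1 rose, Cdc20 (0.82, not called after median-ratio scaling), and 3 fell without EMB- replicate 2 or without EMB- replicate 3. Ube2c, which marks cyclins for destruction, averaged 24.1 ± 4.42 FPKM in EMB+ cells and 62.9 ± 15.7 FPKM in EMB- cells (SD, n = 4 each), and Mki67 fell by 0.76 on the log2 scale. The erythroid sum moved in the same direction, 0.112% on average in EMB+ libraries and 2.59% in EMB- libraries, and its part in these values was not tested.

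The same EMB contrast in vertebral GFP+ cells and in long bone cells showed where vertebral GFP- cells differ. The difference of differences was called for 554 genes against vertebral GFP+ cells, 5.11% of those tested, and for 3304 genes against long bone cells, 30.5%. The count against GFP+ cells was 883 without long bone EMB- replicate 4 and 1209 with library weights, and the count against long bone cells was 2101 after median-ratio scaling. In vertebral GFP+ cells all 23 mitosis genes were higher in EMB+ cells, and in long bone all 23 were lower. The change in vertebral GFP- cells was below that in GFP+ cells for 20 of them and above that in long bone for all 23. Ube2c changed by -1.33 in vertebral GFP- cells, by 1.80 in vertebral GFP+ cells and by -3.66 in long bone cells (adjusted p of the differences 2.6e-07 and 4.6e-06).

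Erythroid genes had the lowest differences of vertebral GFP- against GFP+ cells. Their summed share averaged 0.112% in EMB+ and 2.59% in EMB- cells without GFP, 0.118% and 0.190% in EMB+ and EMB- cells with GFP, and 0.116% and 7.57% in EMB+ and EMB- long bone cells. The change was below that of GFP+ cells for 24 of 25 genes and above that of long bone for 19. The 5 named genes with the lowest difference against GFP+ cells were Slc4a1 (-4.73), Ctse (-4.64), Car2 (-4.49), Klf1 (-4.36) and Hba-a1 (-4.22). Klf1 averaged 1.13 ± 0.323 FPKM in vertebral GFP+ EMB+ cells and 1.28 ± 0.328 FPKM in vertebral GFP+ EMB- cells.

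The log2 change of several bone genes was more positive in vertebral GFP- than in GFP+ cells. This difference was called for 11 of 23 osteogenic genes, and for 0 in the other direction. Among the 11 were Col1a1 and Col1a2, which had changes of -0.21 and -0.43 in GFP- cells and larger falls of -1.28 and -1.41 in GFP+ cells. Bglap changed by 2.09 in GFP- cells and by -0.28 in GFP+ cells, a difference of 2.37 ± 0.47 SE (adjusted p = 0.0018). Its level in vertebral GFP- cells averaged 601 ± 162.2 FPKM in EMB+ cells and 142 ± 46.7 FPKM in EMB- cells, and in GFP+ cells 399 ± 86.5 FPKM in EMB+ and 486 ± 112 FPKM in EMB- cells (SD, n = 4 each). Ifitm5 (2.35 ± 0.39 SE) and the chemokine gene Cxcl12 (1.67 ± 0.30 SE) differed likewise (adjusted p = 0.00024 and 0.00051). The notochord transcription factor T, brachyury, had 9.64, 12.2, 13.4 and 13.3 FPKM in EMB+ cells, against 5.23, 5.12, 3.47 and 5.31 FPKM in EMB- cells, and its difference against GFP+ cells was 1.69 ± 0.20 SE (adjusted p = 4.5e-06), where it averaged 0.0439 ± 0.0878 FPKM in EMB+ and 0.491 ± 0.289 FPKM in EMB- cells. Foxa2, another notochord factor, rose by 2.14 in GFP- cells.

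The 5 genes with the largest positive difference against GFP+ cells were Cck, Hopx, Thbs4, Fcnb and Ctsg. Hopx, an atypical homeobox gene, had 25.8, 28.2, 38.6 and 38.8 FPKM in EMB+ cells, against 15.9, 16.8, 14.3 and 15.6 FPKM in EMB- cells in vertebral GFP- cells. It averaged 3.903 ± 0.747 FPKM in EMB+ and 13.7 ± 2.199 FPKM in EMB- cells with GFP, the opposite order, a difference of 2.59 ± 0.28 SE (adjusted p = 8.5e-07). Thbs4, a tendon matrix protein, fell in both, by 1.17 in GFP- cells and by 3.69 in GFP+ cells on the log2 scale. Cck, cholecystokinin, had 6.57, 8, 13.9 and 28.7 FPKM in EMB+ cells, against 5.02, 5.697, 7 and 6.64 FPKM in EMB- cells. Its rise of 0.90 (adjusted p = 0.032) was lost after median-ratio scaling and without EMB+ replicate 3, EMB+ replicate 4, EMB- replicate 1 or EMB- replicate 2 (adjusted p = 0.072, 0.19, 0.075 and 0.062). The difference of Cck against GFP+ cells, 3.192, exceeded this rise, so its log2 change in GFP+ cells lay below 0. Fcnb (2.497 ± 0.43 SE) and Ctsg (2.41 ± 0.63 SE) are genes of neutrophil precursors, and the neutrophil sum averaged 0.500% in GFP- EMB+ cells and 0.0870% in GFP- EMB- cells, against 0.0358% in GFP+ EMB+ cells and 0.0231% in GFP+ EMB- cells.

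For several genes described above, in both directions, the contrast was wider than in long bone cells. Ihh changed by 4.83 in vertebral GFP- cells and by 2.56 in long bone cells, Gas1 by -3.83 and -0.79, Car9 by -4.22 and -0.51, and Eln by -4.16 and -0.73. The 4 differences were called (adjusted p = 2.3e-06, 4.4e-09, 1.2e-09 and 2.2e-08), and for Gas1, Car9 and Eln the difference against vertebral GFP+ cells was not (-0.07 ± 0.26 SE, -0.78 ± 0.29 SE and -0.28 ± 0.32 SE). Car9 averaged 4.22 ± 1.32 FPKM in long bone EMB+ cells and 6.52 ± 2.34 FPKM in long bone EMB- cells (SD, n = 4 each). The lowest difference was that of Msmp, a microseminoprotein, at -10.35 ± 0.47 SE (adjusted p = 1.9e-13). Among vertebral GFP- libraries, Msmp had 4.995, 10.03, 9.26 and 7.39 FPKM in EMB+ cells, against 29.1, 51.5, 56.9 and 30.5 FPKM in EMB- cells, while in long bone it averaged 932 ± 337 FPKM in EMB+ and 2.38 ± 1.45 FPKM in EMB- cells. Padi2 (-4.43), the sulfotransferase gene Chst5 (-4.15), the zinc finger gene Glis1 (-3.80) and Sbsn (-3.74) followed. The largest positive differences were those of Fgl2 (5.02), Wnt11 (3.83), the clotting factor gene F13a1 (3.73), Moxd1 (3.71) and Arsi (3.58). For Fgl2 this came with no call in vertebral GFP- cells (0.79, adjusted p = 0.072) and a fall of 4.23 on the log2 scale in long bone. F13a1 had 31.6, 42.7, 55.95 and 30.01 FPKM in EMB+ cells, against 4.75, 3.23, 2.69 and 3.399 FPKM in EMB- cells.

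**Figure D5:**
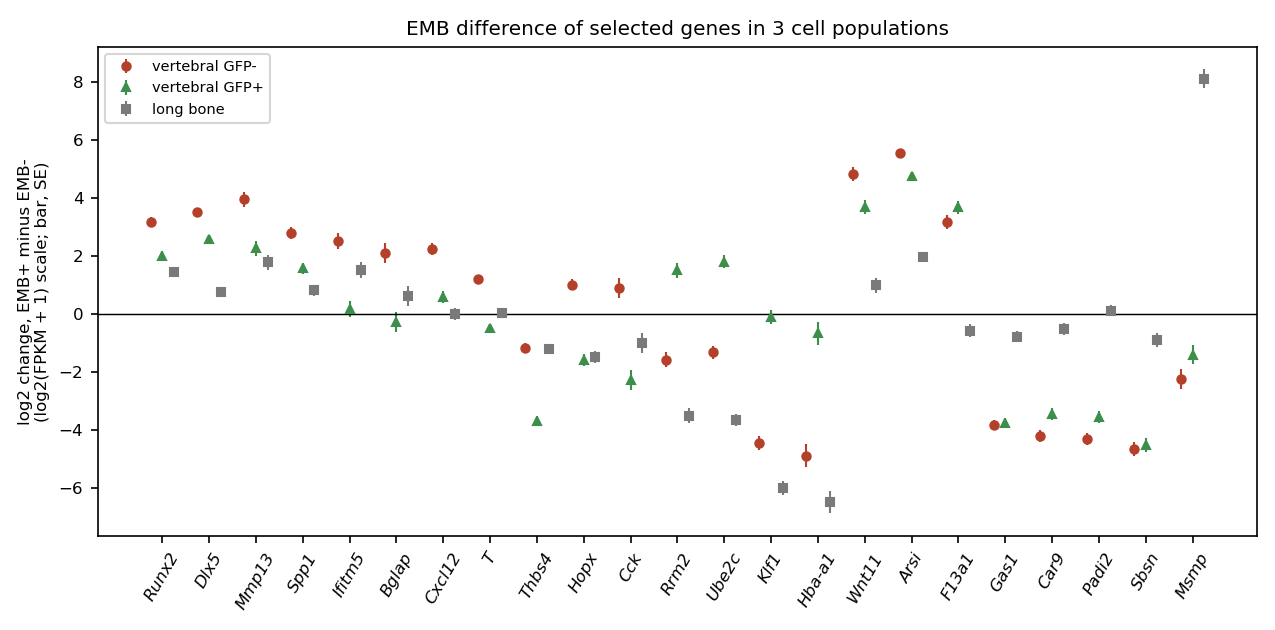
Log2 change, EMB+ minus EMB-, with its SE (vertical axis, log2(FPKM + 1) scale) in vertebral GFP- (circles), vertebral GFP+ (triangles) and long bone cells (squares) for 23 genes picked from those named in the text after their values were seen. Klf1 and Hba-a1 change in vertebral GFP- and long bone cells and lie at -0.10 and -0.67, not called, in GFP+ cells, while Gas1 and Car9 change in both vertebral populations and lie at -0.79 and -0.51 in long bone.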

How the data were processed

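Values were FPKM as deposited by the authors, 1 column per library, for 22053 entries of protein-coding genes. Per the labels' protocols, cDNA was made with SMART-Seq v4 and Nextera XT, which do not mark the strand. Tools named in the submitters' processing notes are Cufflinks 2.1.1, STAR 2.5.2 and bcl2fastq 2.19, with build GRCm38. Read depth is unknown, so no counting intervals are given, and an exact 0 can be a failed estimate. Left out were 102 entries that repeat a symbol or identifier and 3 genes with failed estimates. Start positions were raised by 1, since 17888 of 21740 matched genes start 1 below the reference annotation.

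For the 10835 genes, limma 3.58.1 (R 4.3.3) was run on log2(FPKM + 1), in a single fit of the 24 libraries in 6 groups (18 residual degrees of freedom, trend and robust empirical Bayes, two-sided, Benjamini-Hochberg adjustment, threshold 0.05). Replicate numbers in the titles paired the libraries by the rule used: deviations of same-numbered EMB+ and EMB- libraries correlated at 0.134 to 0.249, above 0.1 in 4 of 4 pairs, against -0.288 to 0.150 for other pairs, though nothing says what a number shares. The fit holds no block, which is an alternative.

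Members and gene lists (40 lists, 838 genes) were chosen with earlier results of these data known. Named by rule were the sort markers, the 15 genes per direction with the largest change with no overlap of the groups and a mean of at least 5 FPKM in the higher one, without predicted genes, up to 6 members per list with the smallest adjusted p, the 10 most abundant genes, and 5 genes per direction of each difference. Other members named were chosen after their values were seen. Symbols were matched by identifier for Lect1 and 3110079O15Rik. Alternatives were pseudocounts of 0.1 and 5, no filter, a filter at 5 FPKM, quantile normalization, median-ratio scaling over 4842 genes, fits of 8 or 16 libraries, library weights, the replicate block, and each library left out. Pairing the permutation of marker sums was added after seeing the data. Promoter windows came from RefSeq. Some list symbols were not analysed here, and some members are not reported here by name.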

Additional observations from a re-analysis of the deposited data

Results flagged for a closer look

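In 100 groups of 4 values examined for a library that stands apart from the other 3, chance alone picks out about 1 in 20. Of single genes, Mmp13 stood apart in EMB+ replicate 3 with 221.5 FPKM, Hbb-bt with 13.96 FPKM, Hbb-bs with 52.3 FPKM and Alas2 with 1.064 FPKM in EMB+ replicate 1, Sbsn with 2.95 FPKM in EMB+ replicate 4, and Fgl2 with 2.405 FPKM in EMB- replicate 1. Of summed markers, the neutrophil sum of EMB- replicate 3 was 0.1794%, the endothelial sum of EMB+ replicate 4 was 0.007296%, the adipogenic sum of EMB+ replicate 4 was 0.01077%, and the skeletal muscle sum of EMB- replicate 1 was 0.01166%.

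Several genes had an EMB difference that was itself called different between cell populations. In vertebral GFP- minus vertebral GFP+ cells the log2 difference was 3.192 for Cck, 2.591 for Hopx, 2.52 for Thbs4, 2.497 for Fcnb and 2.408 for Ctsg. It was -4.733 for Slc4a1, -4.638 for Ctse, -4.492 for Car2, -4.36 for Klf1 and -4.224 for Hba-a1. In vertebral GFP- minus long bone cells it was 5.019 for Fgl2, 3.83 for Wnt11, 3.733 for F13a1, 3.708 for Moxd1 and 3.585 for Arsi. It was -10.35 for Msmp, -4.433 for Padi2, -4.153 for Chst5, -3.803 for Glis1 and -3.737 for Sbsn.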

How the results depend on the processing

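The counts of higher and lower genes moved with the scaling and, at 2-fold, with the pseudocount. Of 10835 genes, quantile normalization gave 2271 higher and 1931 lower, and median-ratio scaling 1705 and 2198, against 4719 and 1165 as deposited. At 2-fold or more, against 872 higher and 533 lower, quantile normalization gave 551 higher, median-ratio scaling 444 higher and 831 lower, and a pseudocount of 5 gave 409 higher and 253 lower. A filter at 5 FPKM left 739 lower genes. S phase genes called lower numbered 9, and 14 after median-ratio scaling. Mitosis genes called lower numbered 5, and 8 with quantile normalization, median-ratio scaling, only 8 or only 16 libraries, library weights or the block with only 8 libraries. Genes whose EMB difference differed from vertebral GFP+ cells numbered 554, and 883 without long bone EMB- replicate 4 and 1209 with library weights. Those differing from long bone numbered 3304, and 2101 after median-ratio scaling. Directions turned for Nptn (-0.018 with quantile normalization, -0.048 with median-ratio scaling) and Lect1 (-0.38 with median-ratio scaling), and quantile normalization, which sets the top ranks equal, gave 0 for Col2a1 and Sparc. Leaving out each of the 8 compared libraries gave 4195 to 4520 higher and 1052 to 1115 lower genes, 854 to 926 and 509 to 547 at 2-fold, 3 to 6 mitosis, 7 to 10 S phase, 7 to 10 tendon and 11 to 15 neutrophil genes, and differences of 455 to 547 against GFP+ and 2891 to 3109 against long bone cells.

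With the replicate number as a block, 4779 genes were higher and 1174 lower, and with the block and only 8 libraries 5553 and 1387. The block on 24 libraries changed no call of a gene named by rule except 1, which gained a call. Of 247 genes named by rule, 224 were called and 204 of these kept call and direction under every alternative. The cause of these shifts was not tested. Leaving out all libraries whose title and label conflict gives no comparison, since these are all 4 EMB+ libraries. FPKM carry no read depth, so low genes have unknown precision, and a share of RNA is measured, not an amount per cell.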

Other observations

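Most ribosomal protein and respiratory chain genes were called higher in EMB+ cells as deposited, a scale on which 43.6% of all genes were higher and 10.8% lower. After median-ratio scaling, 15.7% of all genes were higher and 20.3% lower. Of 81 cytosolic ribosomal protein genes tested, 69 rose and 0 fell, with a median log2 change of 0.71 beside 0.32 over all genes. The groups did not overlap for 37 of the 81, a smaller share than the 53.5% of all genes. After median-ratio scaling 7 of the 81 rose, again a smaller share than over all genes, with quantile normalization 14, and as deposited 43 without EMB- replicate 1 or without EMB- replicate 2. Many of these genes have processed copies in the genome, so single values are uncertain. Of 77 respiratory chain genes, 69 rose and 1 fell as deposited, and 30 rose and 1 fell once scaled by the median ratio. Ndufa4, a subunit of the chain, had 191.3, 148, 165.9 and 171.4 FPKM in EMB+ cells, against 66.6, 51.04, 60.4 and 57.5 FPKM in EMB- cells (log2 change 1.51, SE 0.14, adjusted p = 3.8e-09). The EMB change of the respiratory genes was called above that of long bone cells for 48 of 77, where 3 rose and 4 fell. Over all genes, 30.5% had a called difference from long bone, in either direction. In vertebral GFP+ cells 54 of the 77 rose and 1 fell as deposited. A difference from vertebral GFP+ cells was called for 1 of the 77 in each direction, beside 5.11% of all genes. Of the chaperones of secreted proteins, Hspa5 (0.98), Manf (1.46) and Pdia6 (1.35) rose. Of 30 collagen folding and endoplasmic reticulum genes, 17 rose and 4 fell, 8 and 6 after median-ratio scaling, and their median of 0.45 lay near the 0.32 of all genes. The collagen lysyl hydroxylase genes Plod1 (-0.55) and Plod2 (-0.41) fell.

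Transcription factors of the axial skeleton were split. Uncx, a homeobox gene of the caudal sclerotome, had 8.36, 6.53, 5.94 and 6.08 FPKM in EMB+ cells, against 1.52, 1.22, 1.46 and 1.04 FPKM in EMB- cells (log2 change 1.74, SE 0.13, adjusted p = 1e-10), and Twist1 rose by 1.34. Pax1 (-1.26) and Pax9 (-1.25), which pattern the ventral vertebral column, fell, and Pax1 averaged 61.9 ± 5.32 FPKM in EMB+ cells and 149.9 ± 16.5 FPKM in EMB- cells (SD, n = 4 each). Among Hox genes 6 of 22 were higher and 4 lower as deposited, beside 43.6% and 10.8% of all genes. After median-ratio scaling 4 were higher and 8 lower, beside 15.7% and 20.3% of all genes. Hoxb2 rose by 1.46 and Hoxa5 by 1.19, and Hoxc10 (-0.79) and Hoxd9 (-0.91) fell. Immediate early genes, which respond to tissue handling, were abundant in both groups: Fos averaged 2944 ± 143 FPKM in EMB+ cells and 3014 ± 109 FPKM in EMB- cells (SD, n = 4 each) and was not called as deposited (adjusted p = 0.84). Of 24 such genes 5 rose and 3 fell, beside 43.6% and 10.8% of all genes. After median-ratio scaling 3 rose and 10 fell, beside 15.7% and 20.3% of all genes.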
